A study of Mus musculus with 30 samples.

Results

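Amino acid transporters of the plasma membrane (9 genes) and asparagine synthetase were followed in mouse retinal ganglion cells, which send the axons of the optic nerve to the brain. The 10 genes were taken by symbol from a table of read counts per gene, as the rows Slc7a11, Slc7a5, Slc3a2, Slc7a1, Slc7a3, Slc6a9, Slc1a4, Slc1a5, Slc38a2 and Asns. They are 10 of the 24033 genes used, and 10 of 10 passed the filter on low counts that left 16621 genes for testing. The rule that picks them uses symbols and no measured value, but the set was put together with earlier results of these data known.

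The series holds 30 RNA libraries, in 10 groups of 3. The mice carried LSL-Cas9-GFP and Vglut2-Cre, so that Cas9 and GFP are made where the Vglut2 promoter has driven Cre. AAV2 was injected into the vitreous with either non-targeting sgRNAs (NT) or sgRNAs against Ssrp1 (SSRP1KO), which encodes a subunit of the histone chaperone FACT. The optic nerve was crushed 2 weeks later, and the retinas were taken at 1, 2, 3 or 4 days post crush (dpc) or from uncrushed eyes (no crush). All groups thus share the virus, Cas9 and the Cre, and the NT cells are not untouched cells. Live cells were sorted on CD90.2, GFP, mCherry (carried with the sgRNAs) or a combination, so a sorted population may hold cells that the virus did not reach. Vglut2 is also active in other neurons. The sources used here do not give age, sex or the number of animals per library, so p-values measure the spread between libraries, which may in part be technical.

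Animal cells import most amino acids through proteins of the solute carrier families. When amino acids run short or other stress kinases are activated, phosphorylation of the initiation factor eIF2 raises translation of the transcription factor ATF4, which acts with C/EBP partners at C/EBP-ATF response elements. Transporter genes and Asns are textbook targets of this amino acid response, and in crushed optic nerve the pathway is known as part of the axon injury response of ganglion cells. In neurons the cystine/glutamate antiporter also links amino acid exchange to glutathione supply and to glutamate release.

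The promoters show where such elements lie relative to the genes that moved. RefSeq promoters, 250 bases before to 50 after a transcript's start on GRCm38.p6, were found for 7 members. The C/EBP-ATF response element was searched as TGATGNAA and its reverse complement TTNCATCA, and 3 of the 7 members held a match: Slc7a11, Asns and Slc1a4. Of all 32851 promoters 3.97% held one, and of 27025 gene symbols 4.51%. Slc7a11 held 2 matches, in opposite orientations, with first bases at -66 and -47 from the start site. Asns held 1 at -23 on the strand of the gene, and Slc1a4 held 1 at -4 on the opposite strand. Matches are in capitals below. The windows are chr3:50443564-50443863 for Slc7a11, chr6:7693160-7693459 for Asns and chr11:20332664-20332963 for Slc1a4, and all 3 are given 5′ to 3′ on the minus strand, on which these genes lie.
Slc7a11 promoter: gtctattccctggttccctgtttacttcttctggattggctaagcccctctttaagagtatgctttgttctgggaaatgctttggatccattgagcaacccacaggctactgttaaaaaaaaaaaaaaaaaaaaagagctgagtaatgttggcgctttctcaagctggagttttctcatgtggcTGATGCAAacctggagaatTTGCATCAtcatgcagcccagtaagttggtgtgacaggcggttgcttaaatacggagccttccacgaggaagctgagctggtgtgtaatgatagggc
Asns promoter: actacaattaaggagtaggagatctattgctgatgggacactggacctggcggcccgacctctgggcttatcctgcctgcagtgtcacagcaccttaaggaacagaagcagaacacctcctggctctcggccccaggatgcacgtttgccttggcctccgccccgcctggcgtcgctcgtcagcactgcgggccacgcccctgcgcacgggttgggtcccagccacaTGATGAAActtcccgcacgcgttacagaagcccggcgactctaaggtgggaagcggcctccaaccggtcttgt
Slc1a4 promoter: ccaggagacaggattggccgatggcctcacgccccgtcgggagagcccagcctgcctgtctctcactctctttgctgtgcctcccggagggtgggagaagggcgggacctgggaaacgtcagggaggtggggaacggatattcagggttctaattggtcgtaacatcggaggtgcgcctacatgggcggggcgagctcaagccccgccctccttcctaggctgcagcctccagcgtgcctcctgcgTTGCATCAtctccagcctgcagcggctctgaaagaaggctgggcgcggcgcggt
The antioxidant response element, searched as TGACNNNGC on both strands, was present in 4 of the 7 (Asns, Slc38a2, Slc6a9 and Slc7a1), against 14.0% of gene symbols. The Slc7a11 window held none of these letters. A match describes the window and is not evidence of binding.

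Library totals ran from 9734967 to 34511848 counts, with 15281 to 18504 genes detected. Ssrp1 was lower in SSRP1KO by a mean log2 difference of -0.89 ± 0.10 (edgeR adjusted p = 2.11e-06). It ran from 61.0 to 67.9 CPM (a gene's counts relative to the library's total) in NT no crush and from 43.4 to 66.9 in SSRP1KO no crush, where the difference did not pass. Of the libraries, 3 that stood apart or went against their labels were taken as doubtful after seeing the data. The library labelled SSRP1KO 2dpc replicate 5 had the lowest mean correlation with its group (0.898), and the library labelled SSRP1KO no crush replicate 3 had 66.9 CPM of Ssrp1, within the range of NT no crush. The library labelled NT 2dpc replicate 3 had 36.1 CPM of Ssrp1 and the smallest total. Counts of members are given below with all libraries first and then without these 3. NT 4dpc replicate 1 was not among the 3 and was kept in. It had 50.6 CPM of Ssrp1, against 97.9 and 92.2 in the rest of its group, and the next smallest total, 10909655 counts. The sex mix also differed between groups: Xist ran from 1293 to 2608 CPM in SSRP1KO no crush but from 0.188 to 0.507 in SSRP1KO 1dpc. The summed level of 10 ganglion cell markers, Rbpms and Slc17a6 among them, was 9316 to 10560 CPM in NT no crush and 4350 to 4726 in SSRP1KO 4dpc, with no marker at 0.

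All values below are CPM scaled by TMM, a correction for differences in RNA composition. Changes are log2 fold changes ± SE, and p-values come from edgeR's quasi-likelihood test adjusted by Benjamini-Hochberg over 16621 genes, with calls under 0.05. In bulk RNA of sorted cells, a smaller share of cells making a transcript and less transcript per cell cannot be told apart.

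After crush 9 of the 10 genes were higher in NT cells. At 1dpc 4 of 10 members were called, all higher, against 1.38% of all genes called higher. At 2, 3 and 4dpc 9 of 10 were called, all higher, against 9.47%, 11.9% and 14.0% of all genes. The exception at each time was Slc1a5. The median log2 change of the 10 was 0.87, 1.85, 1.88 and 1.55 at 1, 2, 3 and 4dpc, and that of all genes tested was between 0.00 and 0.07. Without the 3 libraries named above the counts were 6, 9, 9 and 9. Xist ran from 0.364 to 190 CPM in NT no crush, from 1053 to 1686 at 1dpc and from 3023 to 4353 at 4dpc. The sex mix and crush thus cannot be fully told apart in NT at 1 and 4dpc. With a score for the sex mix in the model, 1 member was called at 1dpc and 8 at 4dpc. Markers of other cells moved with these groups in NT: 10 microglia and macrophage markers summed to 43.4 to 70.3 CPM without crush, 62.9 to 347 at 1dpc, 72.9 to 180 at 2dpc, 138 to 140 at 3dpc and 186 to 261 at 4dpc. Ganglion cell markers summed to 9316 to 10560 CPM without crush, 6209 to 6904 at 2dpc, 7013 to 7470 at 3dpc and 5986 to 9544 at 4dpc. Their part in the rise of the members was not tested. The 4 comparisons share the 3 uncrushed libraries of NT. The summed level of the 10 genes rose from 636 ± 153 CPM (SD, n = 3) without crush to 1077 ± 32.4 at 1dpc, 2174 ± 431 at 2dpc and 2366 ± 69.6 at 3dpc, and was 2008 ± 67.8 at 4dpc.

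**Figure D1:**
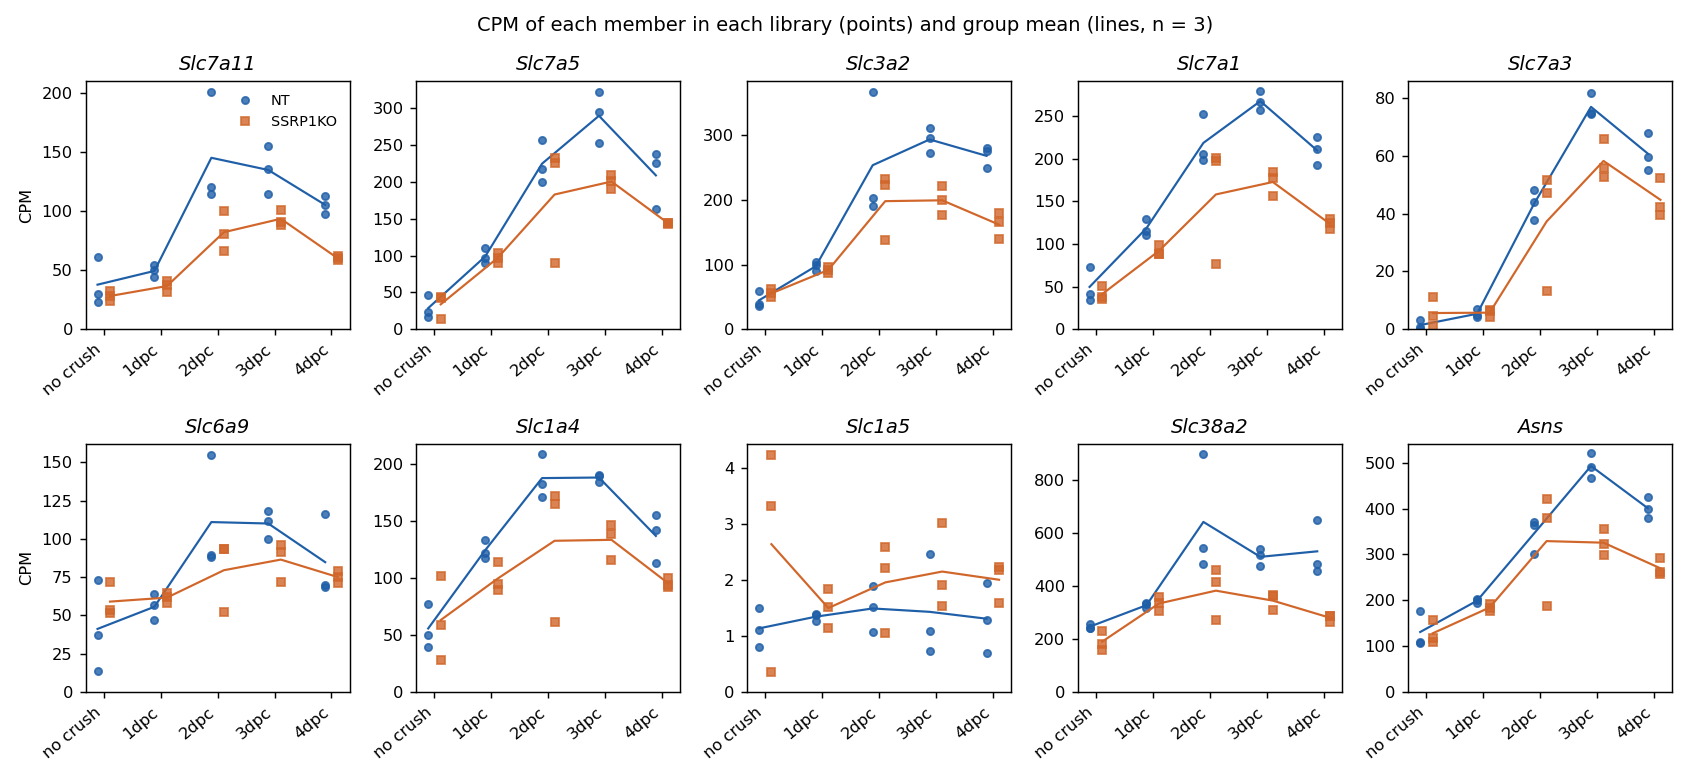
Level of each of the 10 genes in CPM (linear axes that differ between genes) by day after crush; points are single libraries (blue circles NT, orange squares SSRP1KO) and lines join group means, n = 3. Slc7a3 lies between 0.183 and 3.15 CPM in NT no crush and between 74.4 and 81.8 at NT 3dpc, while Slc1a5 reaches 4.25 CPM at most.

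The heterodimeric exchangers consist of a light chain that carries the substrate and a shared heavy chain, 4F2hc, encoded by Slc3a2, which brings the pair to the membrane. Slc3a2 measured 58.4, 39.2 and 35.9 CPM in the 3 NT no crush libraries, 90.0, 99.0 and 103 at 1dpc and 191, 203 and 368 at 2dpc. It measured 274, 311 and 297 CPM at 3dpc and 276, 280 and 250 at 4dpc. Every crushed NT library lay above every uncrushed one. The change was 1.13 ± 0.21 at 1dpc (edgeR adjusted p = 0.00148) and 2.59 ± 0.22 at 4dpc (edgeR adjusted p = 2.31e-10), a 6.03-fold rise.

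Slc7a5 encodes LAT1, the light chain that exchanges large neutral amino acids such as leucine. It measured 47.0, 16.0 and 22.8 CPM in NT no crush, 89.4, 110 and 96.6 at 1dpc, 200, 217 and 257 at 2dpc, 253, 322 and 295 at 3dpc and 163, 226 and 238 at 4dpc. The groups before and after crush did not overlap at any day. At 1dpc Slc7a5 rose by 1.79 ± 0.33 (edgeR adjusted p = 0.00184) and at 3dpc by 3.35 ± 0.35 (edgeR adjusted p = 2.10e-08), which is 10.2-fold. Of the 4 members called at 1dpc, it was the one that kept its call when a score for the sex mix was added to the model. Slc3a2, Slc7a1 and Slc1a4 lost theirs.

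Slc7a11 encodes xCT, the light chain of system xc-, which takes up cystine in exchange for glutamate. The NT no crush libraries held 61.0, 29.4 and 22.6 CPM and those at 1dpc 54.1, 49.9 and 44.0, so the 2 groups overlapped (0.39 ± 0.24, edgeR adjusted p = 0.531). At 2dpc Slc7a11 measured 114, 120 and 201 CPM, at 3dpc 114, 155 and 136, and at 4dpc 97.5, 113 and 105. These 3 groups lay above all uncrushed libraries. The rise was 1.95 ± 0.25 at 2dpc (edgeR adjusted p = 1.40e-06) and 1.49 ± 0.25 at 4dpc (edgeR adjusted p = 2.67e-05). Without NT no crush replicate 1, the highest of its group, Slc7a11 also passed at 1dpc, as did Slc7a3 and Asns.

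Set per kilobase of exon, the light chains did not keep a fixed ratio to the heavy chain. Slc7a5 per Slc3a2 was 0.586 ± 0.189 (SD, n = 3) in NT no crush and 0.964 ± 0.0843 at 1dpc, with no overlap between the libraries. At 2dpc, from 0.665 to 1.018, and at 4dpc, from 0.564 to 0.908, the ratio overlapped the uncrushed range of 0.388 to 0.765, and at 3dpc, from 0.881 to 0.985, it did not. Slc7a11 per Slc3a2 was 0.205 ± 0.0538 in NT no crush, from 0.160 to 0.265, and 0.0996 ± 0.00895 at 4dpc, from 0.0896 to 0.107. These ratios describe RNA levels and were not tested.

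Both carriers of cationic amino acids, which import arginine and lysine, rose, from very different starting levels. Slc7a1 encodes CAT-1, the broadly expressed form. It measured 73.3, 33.9 and 41.5 CPM in NT no crush, 116, 129 and 111 at 1dpc, 198, 205 and 252 at 2dpc, 267, 279 and 257 at 3dpc and 192, 226 and 211 at 4dpc. All crushed libraries exceeded all uncrushed ones, and Slc7a1 was called at each day, by 1.26 ± 0.25 at 1dpc (edgeR adjusted p = 0.00312) and 2.08 ± 0.25 at 4dpc (edgeR adjusted p = 1.74e-07).

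Slc7a3 encodes CAT-3, a form known from brain. It measured 3.15, 0.891 and 0.183 CPM in NT no crush, 4.12, 7.12 and 4.75 at 1dpc, 37.9, 48.2 and 44.1 at 2dpc, 81.8, 74.7 and 74.4 at 3dpc and 59.5, 67.9 and 55.0 at 4dpc. The 1dpc libraries all lay above the uncrushed ones, but the change of 1.99 ± 0.60 did not pass (edgeR adjusted p = 0.0867). At 3dpc the rise was 5.84 ± 0.64 (edgeR adjusted p = 4.41e-08), the largest among the 10 members at that day. Its fold of 57.3 rests on a low starting level that differed between the 3 uncrushed libraries. Per kilobase, Slc7a3 went from 0.372 ± 0.409 CPM in NT no crush to 20.4 ± 1.11 at 3dpc, beside 23.2 ± 0.954 for Slc7a1 at the same time.

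Carriers of small neutral amino acids divided into 3 that rose and 1 that stayed near the limit of detection. Slc38a2 encodes SNAT2, a sodium-coupled carrier of alanine, glutamine and similar amino acids. It measured 240, 258 and 240 CPM in NT no crush, 315, 332 and 335 at 1dpc and 481, 544 and 900 at 2dpc. At 3dpc it measured 539, 517 and 474 CPM, and at 4dpc 651, 484 and 457. The 1dpc libraries stood above the uncrushed ones with a change of 0.41 ± 0.19 that did not pass (edgeR adjusted p = 0.341). The change at 4dpc was 1.11 ± 0.19 (edgeR adjusted p = 4.37e-05).

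Slc1a4 encodes ASCT1, a sodium-dependent exchanger of alanine, serine and cysteine. It measured 77.2, 50.1 and 39.6 CPM in NT no crush, 134, 122 and 117 at 1dpc, 171, 209 and 183 at 2dpc, 191, 190 and 184 at 3dpc and 113, 155 and 142 at 4dpc. No crushed library fell to the uncrushed range. The rise at 1dpc (1.16 ± 0.31, edgeR adjusted p = 0.0453) lost its call when NT no crush replicate 2 or 3 or any 1 library of 1dpc was left out. The rise at 3dpc was 1.76 ± 0.31 (edgeR adjusted p = 8.29e-05).

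Slc6a9 encodes the glycine transporter GlyT1, which in retina is best known from amacrine cells and is itself on the amacrine marker list. It measured 72.9, 37.0 and 13.5 CPM in NT no crush, 46.7, 56.5 and 63.6 at 1dpc, 89.6, 88.2 and 155 at 2dpc, 118, 100 and 112 at 3dpc and 116, 68.5 and 69.6 at 4dpc. The uncrushed libraries spread over a wide range, and the 4dpc group overlapped them. Its call at 4dpc (1.04 ± 0.34, edgeR adjusted p = 0.0199) was lost without NT no crush replicate 2 or 3 or NT 4dpc replicate 1, and its change at 1dpc was 0.44 ± 0.33 (edgeR adjusted p = 0.638). The summed amacrine markers ran from 477 to 757 CPM in NT no crush and from 448 to 567 at NT 4dpc. Exons of Slc6a9 overlap those of B4galt2, Ccdc24 and Gm17114 on the opposite strand over 1555 bases, and since the sources used here do not give the strand setting of the counting, their reads cannot be told apart.

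Slc1a5 encodes ASCT2, a glutamine exchanger of proliferating cells. It ran from 0.807 to 1.5 CPM in NT no crush and from 0.694 to 2.47 over the 12 crushed NT libraries. No change passed in either sgRNA group, and at these counts a moderate change was not detectable.

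Asns encodes asparagine synthetase, which makes asparagine from aspartate and glutamine. It measured 177, 106 and 109 CPM in NT no crush, 193, 202 and 203 at 1dpc, 365, 372 and 301 at 2dpc, 467, 491 and 521 at 3dpc and 379, 424 and 400 at 4dpc. All crushed libraries lay above all uncrushed ones. The change at 1dpc was 0.61 ± 0.20 and did not pass (edgeR adjusted p = 0.139). It passed at 2dpc (1.41 ± 0.20, edgeR adjusted p = 8.57e-06), at 3dpc (1.92 ± 0.21, edgeR adjusted p = 3.33e-08) and at 4dpc (1.62 ± 0.21, edgeR adjusted p = 4.22e-07).

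Set per kilobase of exon, Asns had the highest level of the 10 in NT no crush, 47.8 ± 14.8 CPM per kilobase, followed by Slc38a2 at 27.8 ± 1.14. Slc1a4, at 14.2 ± 4.95, and Slc3a2, at 12.6 ± 3.45, differed by less than their spread. The lowest were Slc7a3 and Slc1a5, at 0.372 ± 0.409 and 0.272 ± 0.0831 CPM per kilobase. At NT 3dpc Asns stood at 180 ± 9.88, Slc3a2 at 83.2 ± 5.37, Slc7a5 at 78.2 ± 9.35 and Slc38a2 at 57.7 ± 3.79 CPM per kilobase.

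**Figure D2:**
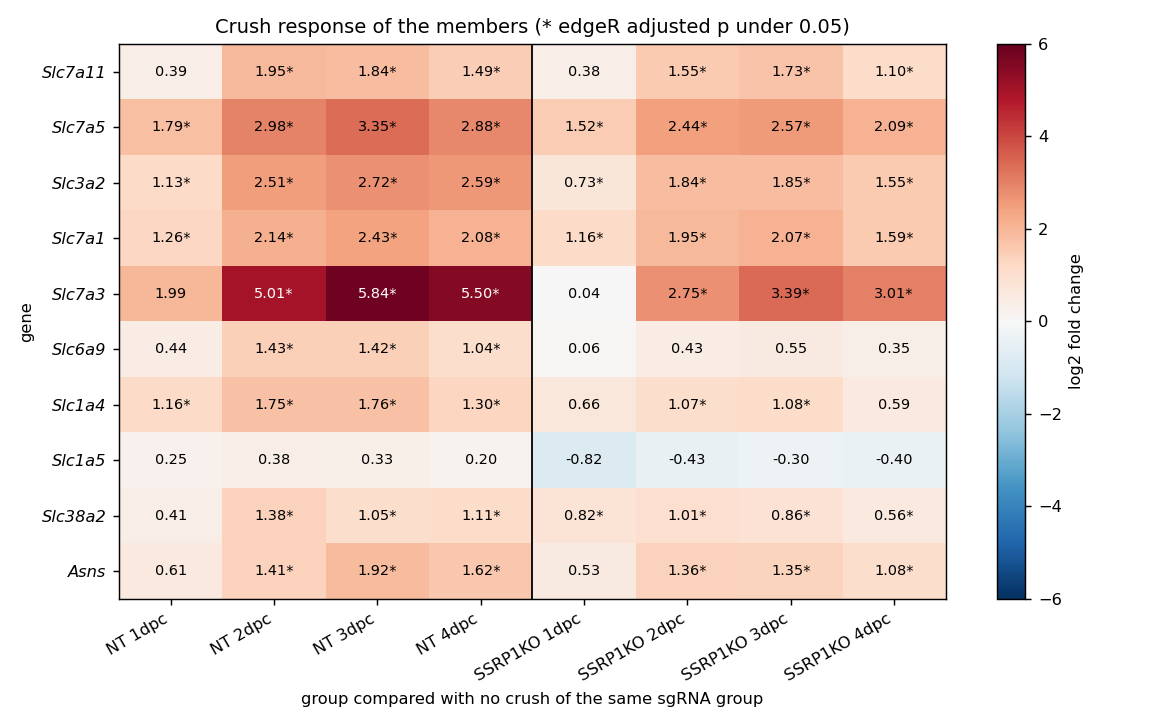
Log2 fold change of each gene (rows) at each day against no crush of the same sgRNA group (columns), with a star where the edgeR adjusted p is under 0.05. In NT, 9 of 10 rows are starred at 2, 3 and 4dpc, and the largest value is 5.84 for Slc7a3 at 3dpc.

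Members rose again between 1 and 2dpc. In NT, 7 of 10 members were higher at 2dpc than at 1dpc, against 3.38% of all genes, and in SSRP1KO 5 of 10 were, against 3.57%. Leaving out the 3 doubtful libraries gave 7 and 7. With 1 library left out they ran from 4 to 7 in NT, where Slc7a5, Slc7a1 and Asns lost their calls without 1dpc replicate 1 or 2, and from 3 to 6 in SSRP1KO. Slc7a3 rose by 3.02 ± 0.55 over that day in NT (edgeR adjusted p = 0.000698) and Slc7a11 by 1.55 ± 0.25 (edgeR adjusted p = 0.000142). Slc1a4, Slc6a9 and Slc1a5 were not called over it. Between 2 and 3dpc no member passed in edgeR in either sgRNA group, where 6.13% of all genes passed in NT and 0.223% in SSRP1KO. Between 3 and 4dpc none passed either, against 0.108% in NT and 0.0% in SSRP1KO. DESeq2 also called 0 members in these 4 comparisons, and at an unadjusted p under 0.05 there were 1 and 0 between 2 and 3dpc in NT and SSRP1KO and 0 and 1 between 3 and 4dpc. Between 2 and 3dpc in NT edgeR called 1 member in 4 alternatives, Asns with the replicate block and without the library that stood apart, Slc3a2 without the 3 libraries named above and Slc7a3 with only the groups compared. In the NT group means, 6 of the 10 genes were highest at 3dpc, but the order among 2, 3 and 4dpc is not resolved by these tests. At 4dpc 7 of 10 were higher than at 1dpc in NT, against 9.88% of all genes, all but Slc6a9, Slc1a4 and Slc1a5. The count from 1 to 4dpc was also 7 without the 3 doubtful libraries, and without them 0 members were called in SSRP1KO between 2 and 3dpc and in either sgRNA group between 3 and 4dpc.

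After crush 8 of the 10 genes were also higher in SSRP1KO cells at 2 and 3dpc. Higher than SSRP1KO no crush were 4 of 10 members at 1dpc (background 3.03% of all genes), 8 at 2dpc (7.64%), 8 at 3dpc (8.77%) and 7 at 4dpc (6.88%), and 0 were lower. The median change of the 10 was 0.59, 1.46, 1.54 and 1.09, against -0.01 to 0.03 for all genes tested. Without the 3 libraries named above the counts were 4, 8, 8 and 7, and with only the groups compared in the fit 4 were called at 2dpc, where all genes called went from 1939 to 181. Slc6a9 and Slc1a5 were called at no day, and Slc1a4 was called at 2 and 3dpc but not at 4dpc.

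At 1dpc the SSRP1KO calls were Slc7a5, Slc3a2, Slc7a1 and Slc38a2. Slc38a2 measured 157, 231 and 180 CPM in SSRP1KO no crush and 359, 336 and 306 at 1dpc, without overlap (0.82 ± 0.19, edgeR adjusted p = 0.0117). With the sex score in the model 1 of these 4 calls remained, that of Slc3a2, and Slc3a2 in turn lost its call when any 1 library of the groups compared was left out. All SSRP1KO no crush libraries and no SSRP1KO 1dpc library had high Xist, and the 2dpc libraries also ran only from 0.336 to 0.856 CPM, so sex and crush cannot be told apart at 1 and 2dpc.

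At 4dpc the chains of the exchangers were higher in SSRP1KO. Slc3a2 measured 49.1, 61.9 and 55.3 CPM without crush and 180, 166 and 139 at 4dpc, a rise of 1.55 ± 0.21 (edgeR adjusted p = 4.62e-06). Slc7a5 measured 44.3, 42.6 and 14.2 CPM without crush and 144, 144 and 142 at 4dpc, a rise of 2.09 ± 0.34 (edgeR adjusted p = 5.39e-05). Slc7a11 measured 32.4, 28.2 and 23.6 CPM without crush and 61.6, 60.2 and 58.5 at 4dpc, a rise of 1.10 ± 0.25 (edgeR adjusted p = 0.0024). For all 3 genes the groups did not overlap.

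Of the cationic carriers, Slc7a1 measured 50.1, 35.4 and 37.6 CPM in SSRP1KO no crush and 130, 124 and 117 at 4dpc (1.59 ± 0.25, edgeR adjusted p = 3.62e-05). Slc7a3 measured 4.51, 11.2 and 1.02 CPM without crush and 52.5, 42.5 and 39.4 at 4dpc (3.01 ± 0.55, edgeR adjusted p = 0.000264). The starting level of Slc7a3 thus spread widely between libraries in both sgRNA groups, and in neither did it reach the levels of 4dpc. Asns measured 118, 157 and 108 CPM without crush and 292, 261 and 257 at 4dpc, a rise of 1.08 ± 0.20 (edgeR adjusted p = 0.000373).

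The neutral carriers moved least. Slc38a2 measured 265, 288 and 287 CPM at SSRP1KO 4dpc, above the 3 uncrushed values, and its change of 0.56 ± 0.19 was near the threshold (edgeR adjusted p = 0.0465) and kept its call in 6 of 15 alternatives. The call was lost in DESeq2, with its size factors, with no filter on low counts, with only the groups compared and when any 1 of 5 of the 6 libraries was left out. Slc1a4 measured 59.0, 102 and 28.1 CPM without crush and 93.4, 91.8 and 100 at 4dpc, with overlap (0.59 ± 0.31, edgeR adjusted p = 0.233). Slc6a9 measured 53.5, 51.5 and 72.0 CPM without crush and 75.3, 71.0 and 78.9 at 4dpc (0.35 ± 0.33, edgeR adjusted p = 0.592). The library labelled SSRP1KO no crush replicate 3, which gave the 72.0, also had the highest summed amacrine markers of any library, 1215 CPM, and 1573 CPM of Müller glia markers; their part in the Slc6a9 value was not tested.

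The 2dpc group of SSRP1KO was split by the library labelled replicate 5. Slc7a5 measured 233, 225 and 90.5 CPM there, Slc7a1 201, 197 and 76.0, Slc7a3 51.6, 47.2 and 13.1, and Asns 421, 380 and 187. The low value in each case was that of this library. Slc1a4 followed the same split with 165, 172 and 61.4 CPM, and Slc3a2 with 233, 223 and 138.

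From 1 to 4dpc 2 of 10 members were higher in SSRP1KO, Slc3a2 and Slc7a3, against 3.21% of all genes. Slc7a11 changed by 0.72 ± 0.24 (edgeR adjusted p = 0.064) and Asns by 0.55 ± 0.20 (edgeR adjusted p = 0.0906), both without overlap between groups. Without the 3 libraries named above 4 members were called, these 2 included. With only the SSRP1KO 1dpc and 4dpc libraries in the fit 8 members were called, 7 higher and 1 lower, and all genes called went from 1495 to 4851. With the sex score 0 members were called and all genes called fell to 275. Xist ran from 0.188 to 0.507 CPM in SSRP1KO 1dpc and from 2260 to 3236 in SSRP1KO 4dpc. Sex and day thus cannot be told apart in this comparison, and Slc7a3 is X-linked.

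Set against NT, SSRP1KO cells had lower levels of Slc7a11, Slc3a2 and Slc38a2 at 4dpc, and lower levels of these 3, Slc7a1 and Asns in the mean of the 5 times. These are differences in level at matched times, and the crush responses themselves are compared further below. Without crush 0 of 10 members were called, against 3.91% of all genes, at 1dpc 0 against 0.018%, at 2dpc 0 against 0.0842% and at 3dpc 0 against 1.11%. At an unadjusted p under 0.05 these 4 comparisons had 1, 0, 2 and 5 members, and DESeq2 called 1 (Slc7a3), 0, 2 (Slc7a11 and Slc38a2) and 0. At 1dpc Xist ran from 1053 to 1686 CPM in NT and from 0.188 to 0.507 in SSRP1KO. The sex mix and the sgRNA thus cannot be told apart at 1dpc. Without the 3 libraries named above edgeR called 2, 0, 0 and 4, and with only the groups compared in the fit 7 were lower at 3dpc, where all genes called went from 184 to 695. At 4dpc 3 of 10 were lower, against 4.17% of all genes called lower, and 0 were higher. In the mean of the 5 times 5 of 10 were lower, against 10.2% of all genes, and 0 were higher, against 9.64%. Leaving out the 3 doubtful libraries gave 4 lower and 1 higher: Slc3a2 lost its call (-0.17, edgeR adjusted p = 0.0675) and Slc1a5 gained one.

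**Figure D3:**
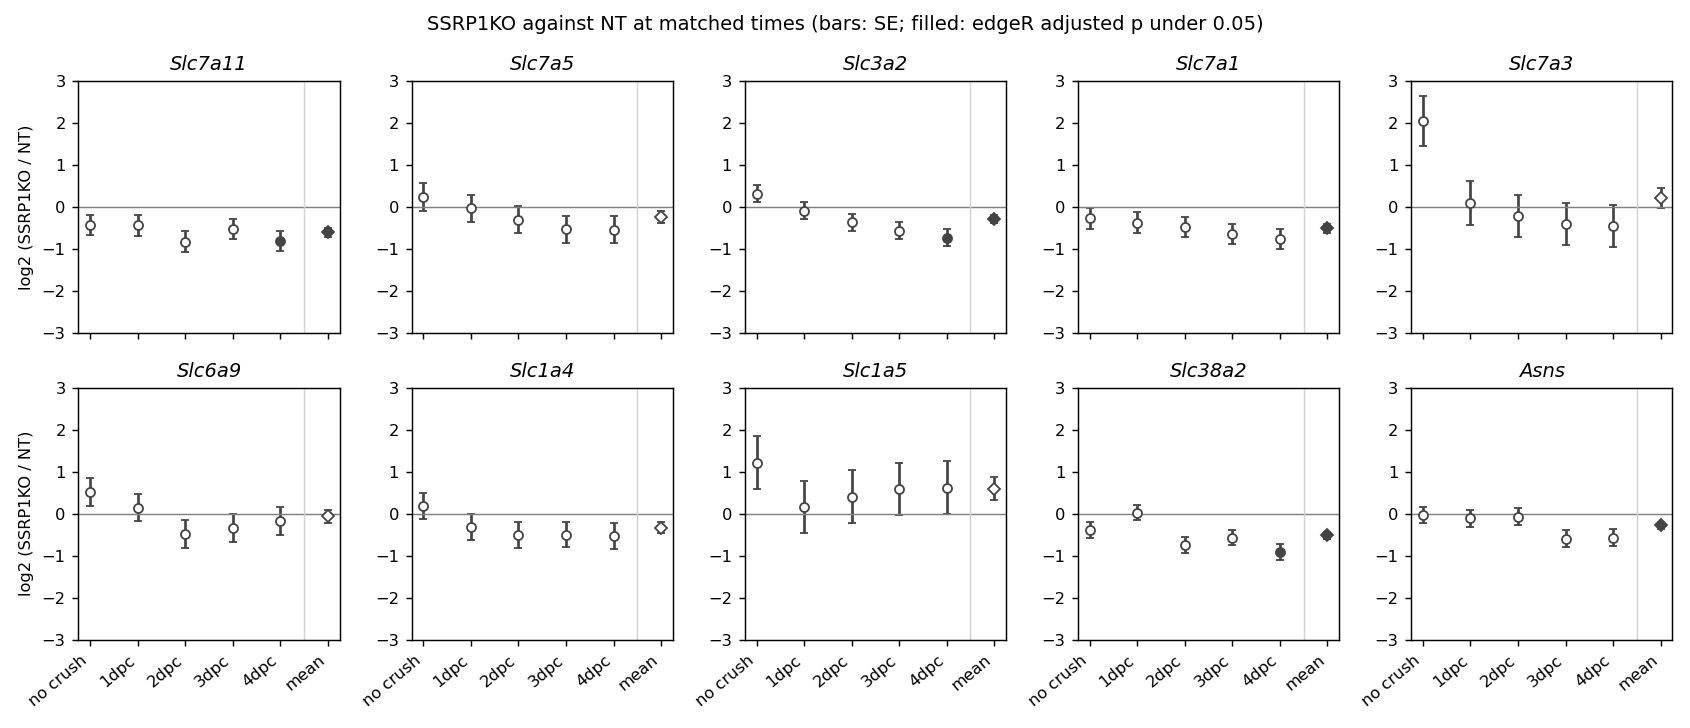
Log2 difference SSRP1KO minus NT of each gene, by time and averaged over the 5 times, with SE bars; filled markers have an edgeR adjusted p under 0.05. At 4dpc Slc38a2 lies at -0.92, Slc7a11 at -0.81 and Slc3a2 at -0.73, and Slc7a3 without crush lies at 2.05 and is not filled.

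Slc38a2 had the largest of the called differences. At 4dpc it measured 651, 484 and 457 CPM in NT and 265, 288 and 287 in SSRP1KO, without overlap, a difference of -0.92 ± 0.19 (edgeR adjusted p = 0.00353). At 2dpc NT held 481, 544 and 900 CPM and SSRP1KO 461, 415 and 270, also without overlap, but -0.75 ± 0.19 did not pass (edgeR adjusted p = 0.0698). The 900 and the 270 come from 2 of the doubtful libraries, and without the 3 the difference was -0.23 (edgeR adjusted p = 0.735). Over the 5 times the mean difference was -0.52 ± 0.08 (edgeR adjusted p = 9.85e-05), and it was 0.03 at 1dpc.

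Slc7a11 was lower in SSRP1KO at 5 of 5 times, with differences from -0.82 to -0.42. At 4dpc the NT libraries held 97.5, 113 and 105 CPM and the SSRP1KO libraries 61.6, 60.2 and 58.5 (-0.81 ± 0.24, edgeR adjusted p = 0.0399). At 2dpc they held 114, 120 and 201 against 100, 80.3 and 66.0 CPM (-0.82 ± 0.24, edgeR adjusted p = 0.096). Neither pair of groups overlapped. The 201 and the 66.0 come from the doubtful libraries, and without the 3 the difference at 2dpc was -0.38 (edgeR adjusted p = 0.732). The mean over the 5 times was -0.60 ± 0.11 (edgeR adjusted p = 0.000284).

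The heavy chain gene Slc3a2 measured 276, 280 and 250 CPM in NT and 180, 166 and 139 in SSRP1KO at 4dpc, with no overlap (-0.73 ± 0.20, edgeR adjusted p = 0.0278). Its mean difference was -0.28 ± 0.09 (edgeR adjusted p = 0.0277), with a value of 0.32 in the opposite direction without crush. Slc7a1 was lower at 5 of 5 times and passed in the mean (-0.50 ± 0.11, edgeR adjusted p = 0.0017). At 4dpc it measured 192, 226 and 211 CPM in NT and 130, 124 and 117 in SSRP1KO, with no overlap, and missed the threshold (-0.76 ± 0.24, edgeR adjusted p = 0.0534).

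Asns was also lower at 5 of 5 times, by as little as -0.03 without crush. It measured 467, 491 and 521 CPM in NT and 355, 300 and 322 in SSRP1KO at 3dpc, without overlap, and the difference of -0.60 ± 0.20 did not pass (edgeR adjusted p = 0.142). The 300 came from SSRP1KO 3dpc replicate 2, whose photoreceptor markers summed to 4054 CPM, against 738 and 631 in the rest of its group. The part of other cells in this value was not tested. At 4dpc the difference of Asns was -0.57 ± 0.20 (edgeR adjusted p = 0.0835) and in the mean -0.28 ± 0.09 (edgeR adjusted p = 0.0281). Slc1a4 had a mean difference of -0.33 ± 0.14 (edgeR adjusted p = 0.0841). Slc1a5 had the opposite sign, higher in SSRP1KO at 5 of 5 times, and was not called with all libraries in. Its call appeared when replicate 3 of uncrushed SSRP1KO, or all 3 doubtful libraries, were left out.

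Slc7a3 had the largest positive difference of the 10 before injury. It measured 3.15, 0.891 and 0.183 CPM in NT no crush and 4.51, 11.2 and 1.02 in SSRP1KO no crush, ranges that overlapped (2.05 ± 0.60, edgeR adjusted p = 0.0514). It was called higher by DESeq2 and under 2 other filters on low counts, and when uncrushed NT replicate 1 or the library labelled SSRP1KO no crush replicate 3 was left out. With the sex score the difference was 1.78 and did not pass (edgeR adjusted p = 0.374), and with 1 library left out it ran from 1.09 to 3.38. Slc7a3 is X-linked, and Xist was at 190, 0.364 and 0.697 CPM in NT no crush against 1293 to 2608 in SSRP1KO no crush, so sex and the sgRNA cannot be told apart here.

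The 3 calls at 4dpc rest on few libraries. Without NT 4dpc replicate 1, the one with 651 CPM of Slc38a2, 0 members were called. Without NT 4dpc replicate 2, or any of the 3 SSRP1KO 4dpc libraries, Slc38a2 alone was, and without NT 4dpc replicate 3 Slc7a11 lost its call. Without the 3 libraries named above, 5 were called at 4dpc, with Slc7a1 and Asns added, but that fit kept NT 4dpc replicate 1. In the mean of the 5 times, Slc7a11, Slc7a1 and Slc38a2 passed under every alternative run. Slc3a2 and Asns were lost without NT no crush replicate 1 and with the replicate block. Slc3a2 was also lost without NT 2dpc replicate 3, NT 3dpc replicate 2, SSRP1KO 4dpc replicate 3 or the 3 doubtful libraries. Its call held in 32 of 38 alternatives.

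Between NT and SSRP1KO at 4dpc the summed ganglion cell markers also differed, 5986 to 9544 CPM against 4350 to 4726, without overlap. This gap was not particular to 4dpc. Without crush the sums were 9316 to 10560 CPM in NT and 6549 to 7477 in SSRP1KO. At 1dpc they were 6671 to 8556 and 6060 to 6595, and at 3dpc 7013 to 7470 and 4952 to 6070, all without overlap. At 2dpc they overlapped, at 6209 to 6904 and 4853 to 6814. The part of these markers in the differences of the members was not tested. Microglia and macrophage markers summed to 186 to 261 CPM at NT 4dpc and 146 to 178 at SSRP1KO 4dpc. Müller glia markers went the other way, at 341 to 499 and 503 to 620 CPM, as did astrocyte markers, at 41.2 to 68.4 and 88.8 to 97.5. Neither pair overlapped. Much of the astrocyte sum was Slc1a2, at 37.3 ± 16.3 CPM (SD, n = 3) at NT 4dpc and 70.4 ± 3.17 at SSRP1KO 4dpc. Slc1a2 is also counted below among the other plasma membrane transporters. Amacrine sums were 448 to 567 and 564 to 817 CPM, bipolar 155 to 184 and 183 to 213, and photoreceptor 307 to 662 and 380 to 593, with overlap. The part of these other cells was not tested either. Of 10 endothelial and pericyte markers, Cldn5, Cdh5 and Slc38a5 were at 0 in 24, 21 and 22 of the 30 libraries, and the sum reached 68.0 CPM at most.

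The difference between the crush responses themselves, tested as the 4 differences together in 1 F-test, was called for 0 of 10 members in edgeR, against 0.728% of all genes. At an unadjusted p under 0.05 there were 3, and DESeq2 called 0. The mean of the 4 differences, SSRP1KO response minus NT response, was -0.75 for Slc3a2 (edgeR adjusted p = 0.214), -2.29 for Slc7a3 (edgeR adjusted p = 0.298), -0.17 for Slc38a2 (edgeR adjusted p = 0.243) and -0.31 for Asns (edgeR adjusted p = 0.50). These p-values belong to the joint test and not to the mean. For Slc38a2 the differences at 1, 2, 3 and 4dpc were 0.40, -0.37, -0.19 and -0.55, and the positive value at 1dpc was not tested by itself. Its mean levels at 1dpc were 327.2 CPM in NT and 333.7 in SSRP1KO, and those without crush 245.9 and 189.5. Without the 3 libraries named above these 4 members passed, at -0.61, -2.68, -0.08 and -0.37, with edgeR adjusted p-values of 0.0047, 0.0113, 0.0125 and 0.0409. The smaller rises in SSRP1KO given above are therefore not shown to differ from those in NT with all libraries in.

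Across the 10 group means, the 9 members other than Slc1a5 followed each other. Pearson's r of log2 CPM between them ran from 0.700 to 0.988 over 36 pairs, with a median of 0.907. Slc1a5 had r between -0.305 and 0.334 with the others. The points of these correlations share libraries and the overall course after crush. By the same measure, among 10400 other genes with a mean of at least 5 CPM, those most like Slc7a11 were Dip2b (r = 0.984), Tlk2 (0.981) and Socs7 (0.978). Those most like Asns were Arl14ep (0.994), Sdc2 (0.992) and Plekho1 (0.990). Sdc2, a cell surface proteoglycan, went from 19.7 ± 4.24 CPM in NT no crush to 82.8 ± 5.48 at 3dpc, and Dip2b from 114 ± 11.8 to 302 ± 29.7.

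Other amino acid transporters of the plasma membrane did not rise as a group. At NT 4dpc 3 of 22 tested were higher and 4 lower, with a median change of 0.05, where 14.0% of all genes were called higher and 13.2% lower. Slc38a1, the glutamine carrier SNAT1, rose from 585 ± 33.9 to 1056 ± 83.6 CPM (0.85 ± 0.16, edgeR adjusted p = 0.000122), and Slc16a10, a carrier of aromatic amino acids, rose by 1.28 ± 0.35 (edgeR adjusted p = 0.00583). Slc43a2, a carrier of large neutral amino acids (LAT4), fell from 213 ± 12.02 to 42.1 ± 17.6 CPM (-2.33 ± 0.26, edgeR adjusted p = 4.89e-08), opposite to Slc7a5. The neuronal glutamate carrier gene Slc1a1 fell by 1.13 on the log2 scale (edgeR adjusted p = 7.04e-05). In SSRP1KO at 4dpc 1 was higher (Slc38a1, 0.73 ± 0.16) and 1 lower (Slc43a2, -1.27 ± 0.25), where 6.88% of all genes were called higher and 6.2% lower. These shares are the background for all list counts at 4dpc. Of 9 lysosomal amino acid transporters 3 were higher and 1 lower at NT 4dpc, with Slc38a7 up by 1.63 ± 0.33, the cystine exporter gene Ctns up by 1.05 ± 0.26 and Slc36a1 at -0.58 ± 0.19. In SSRP1KO 2 were higher, Slc38a7 by 1.37 ± 0.33 and Ctns by 1.07 ± 0.26.

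**Figure D4:**
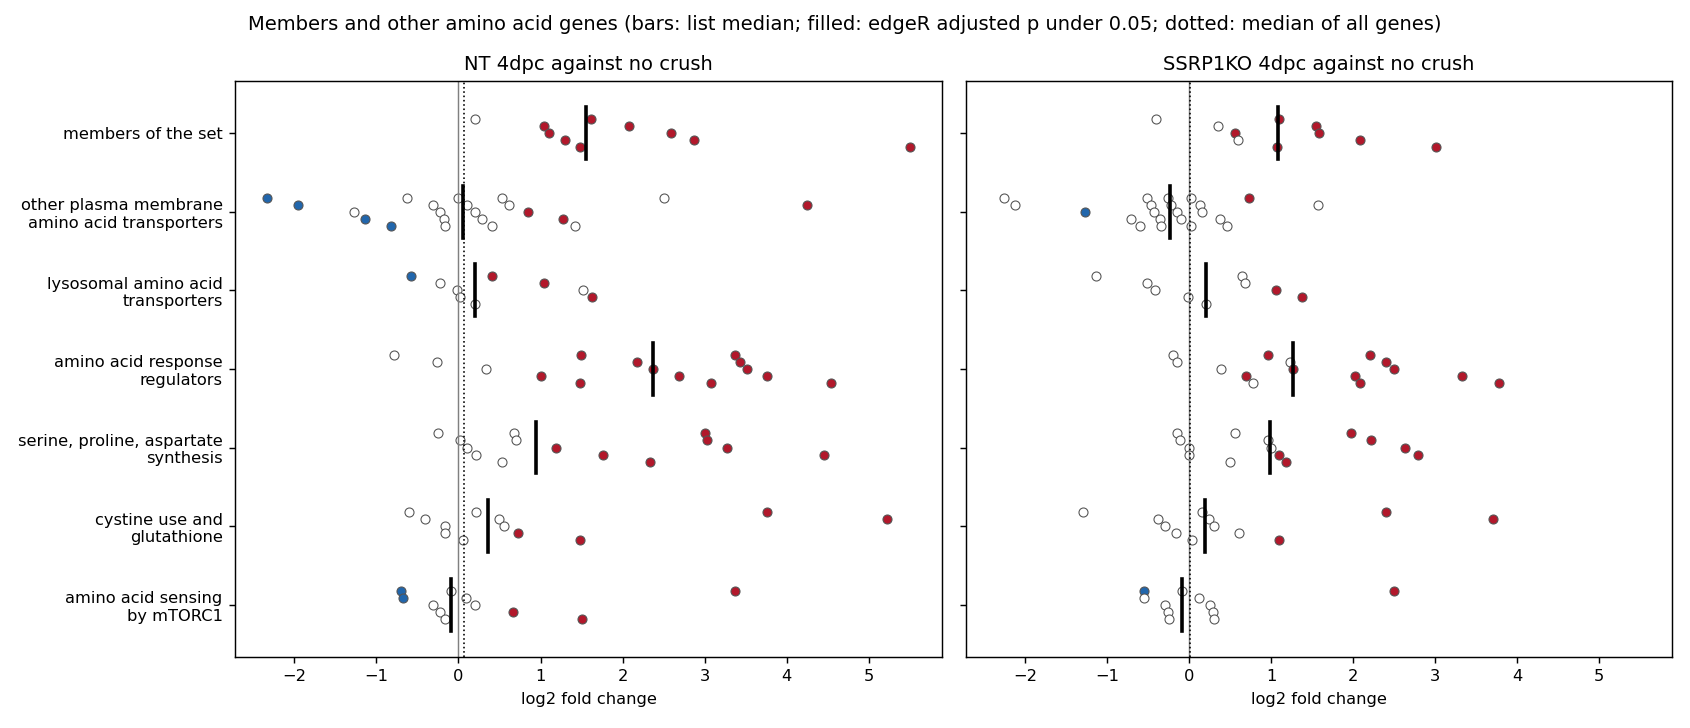
Log2 fold change at 4dpc against no crush for the 10 members and for 6 other gene lists, in NT and SSRP1KO; each point is a tested gene, filled where its edgeR adjusted p is under 0.05, the bar is the list's median and the dotted line that of all genes. At NT 4dpc the median is 1.55 for the members, 2.37 for the regulators of the amino acid response and 0.05 for the other plasma membrane transporters.

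Regulators of the amino acid response rose with the members. At NT 4dpc 12 of 15 were higher and 0 lower, with a median of 2.37, and in SSRP1KO 10 of 15 were higher, with a median of 1.27. Ddit3, which encodes the transcription factor CHOP, went from 19.5 ± 3.89 to 211 ± 73.7 CPM in NT (3.44 ± 0.28, edgeR adjusted p = 1.39e-10). Atf5 rose from 15.8 ± 8.02 to 133 ± 15.1 CPM (3.08 ± 0.30, edgeR adjusted p = 5.12e-09). In SSRP1KO, Ddit3 went from 11.2 ± 2.98 to 112 ± 6.93 CPM, and Eif4ebp1, which encodes an inhibitor of cap-dependent translation, rose by 3.77 ± 0.48 from a level under 1 CPM.

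Of 14 tested genes of serine, proline and aspartate synthesis, 7 were higher and 0 lower at NT 4dpc, among them Shmt2, the mitochondrial serine hydroxymethyltransferase (3.03 ± 0.23, edgeR adjusted p = 3.64e-11), and Psat1 of the serine pathway, from 31.1 ± 13.4 to 250 ± 37.6 CPM. In SSRP1KO 6 of the 14 were higher, Shmt2 by 2.63 ± 0.23 and Psat1 by 1.97 ± 0.31 among them. Of 12 genes of cystine use and glutathione, 4 were higher in NT and 3 in SSRP1KO. This list includes Slc7a11 and shares Chac1 with the regulators. Cth, which makes cysteine from cystathionine, rose by 5.22 ± 0.57 in NT from 0.494 ± 0.198 CPM (edgeR adjusted p = 3.10e-08), and Chac1, which breaks down glutathione, by 3.76 ± 0.49 (edgeR adjusted p = 5.61e-07). In SSRP1KO Cth rose by 3.71 ± 0.56 and Chac1 by 2.41 ± 0.46. Of 11 genes that report amino acids to mTORC1, 3 were higher and 2 lower, with Sesn2, a leucine sensor, up by 3.37 ± 0.44 (edgeR adjusted p = 5.50e-07) and Sesn3 at -0.67 ± 0.13 (edgeR adjusted p = 0.000222). Sesn2 is also counted among the regulators. Rragc was higher by 0.66 ± 0.20 and Sesn1 was at -0.70 ± 0.24. In SSRP1KO 1 was higher, Sesn2 by 2.49 ± 0.42, and 1 lower, Sesn3 at -0.55 ± 0.13.

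In the mean difference between SSRP1KO and NT, 5 of the 15 regulators were lower and 0 higher, with Ddit3 at -0.61 ± 0.11 (edgeR adjusted p = 0.000418) and Eif4ebp1 at -0.79 ± 0.19 (edgeR adjusted p = 0.00325). The background is 10.2% of all genes lower and 9.64% higher. The other plasma membrane transporters had 6 higher and 2 lower of 22. Slc1a2, a glutamate carrier of glia and some neurons that is also on the astrocyte marker list, was higher by 0.87 ± 0.17 (edgeR adjusted p = 0.00083). Slc1a6, another glutamate carrier gene, was higher by 0.86 ± 0.20. Slc38a1 was lower (-0.33 ± 0.07, edgeR adjusted p = 0.00154), as was Slc6a17, a carrier of synaptic vesicles (-0.24 ± 0.06). Of the lysosomal transporters 2 of 9 were lower, Slc7a14 by -0.42 ± 0.06 and Slc38a7 by -0.47 ± 0.14. Cth was lower by -0.96 ± 0.22 (edgeR adjusted p = 0.00332), as was Got1, an aminotransferase of aspartate, by -0.34 ± 0.07 (edgeR adjusted p = 0.000597), and Cbs, which makes cystathionine, was higher by 2.21 ± 0.71 (edgeR adjusted p = 0.028). The Cbs value rests on low counts, with 0.189 ± 0.327 CPM in NT no crush and 2.02 ± 2.05 in SSRP1KO no crush.

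On GRCm38 with the GENCODE M21 annotation, the 10 genes lie on 10 different chromosomes, and 9 of them share no exon bases with another gene. Slc7a11 spans chr3:49892526-50443614 on the minus strand with 13 exon blocks, and Asns chr6:7675169-7693254 on the minus strand, also with 13. Slc7a5 lies at chr8:121881150-121907694, Slc3a2 at chr19:8706882-8723369, Slc7a1 at chr5:148327410-148399904 and Slc7a3 at chrX:101079210-101086020, all on the minus strand. Slc1a4 lies at chr11:20302180-20332713 and Slc38a2 at chr15:96687392-96699730 on the minus strand, and Slc6a9 at chr4:117834506-117875198 and Slc1a5 at chr7:16781340-16798274 on the plus strand. The counts cover whole genes, so a change in a single exon or untranslated region cannot be read from them.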

How the data were processed

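RNA was measured in 30 libraries of sorted mouse retinal ganglion cells. The values used are raw counts of reads per gene, deposited by the authors as whole numbers. STAR, HTSeq, bcl2fastq 2.17 and the build GRCm38 (mm10) are listed, with no role, per the submitters' processing notes. Not given in the sources used here are the annotation, how strand was set and what was done with reads of several matches. A second deposited table, of repeats, was not used. Of 24060 symbols, 27 read as dates and were dropped (0.275% of a library's counts or less). Library totals were 9734967 to 34511848 counts. The reads carry no molecular identifiers in these counts. Replicates were checked for duplicates, and the lowest chi-square of any replicate pair, per degree of freedom, was 11.9.

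The tests used edgeR 4.0.16 under R 4.3.3 (TMM, filterByExpr on the 10 groups, glmQLFit and glmQLFTest, 1 coefficient per group, 20 residual degrees of freedom, two-sided, Benjamini-Hochberg adjustment over 16621 genes, threshold 0.05), and the steps were tested on simulated counts. Within an sgRNA group, each dpc group was set against no crush and 4dpc against 1dpc. SSRP1KO was set against NT by time and averaged over the 5 times, and the 4 differences between crush responses were tested in 1 F-test. Comparisons of successive days were added later. Levels per kilobase used the merged exon length in GENCODE M21. Alternatives were DESeq2 1.42.0, its size factors, 2 other filters on low counts, only the groups compared, the replicate number as a block, a sex score from Xist and Y-linked genes, and leaving out each library or the 1 library with a low correlation with its group. Leaving out 3 doubtful libraries was chosen after seeing the data. Python 3.11.15 with numpy 2.4.6, pandas 2.3.3 and matplotlib 3.10.9 made the tables and figures.

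All 10 genes are named. From each other list the 2 genes with the smallest adjusted p each way were named for 4dpc against no crush and for the mean difference, and the 3 genes with the highest correlation were named for Slc7a11 and Asns. The members and lists were chosen with earlier results of these data known.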

Additional observations from a re-analysis of the deposited data

How the results depend on the processing

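All 9 members called at NT 3dpc passed in every alternative run, as did 8 of 9 at NT 2dpc and NT 4dpc (not Slc6a9), 7 of 8 at SSRP1KO 3dpc (not Slc1a4) and 6 of 7 at SSRP1KO 4dpc (not Slc38a2). With the sex score, members called against no crush fell from 4 to 1 at NT 1dpc and from 4 to 1 at SSRP1KO 1dpc, and those between 1 and 4dpc in SSRP1KO from 2 to 0. In that model Slc7a11 between 1 and 4dpc in SSRP1KO turned to -0.026 (edgeR adjusted p = 0.988), and the mean difference of responses of Slc38a2 to 0.14 (edgeR adjusted p = 0.234). With only the groups compared in the fit, SSRP1KO 2dpc had 4 members called in place of 8, SSRP1KO 4dpc against 1dpc 8 in place of 2, and SSRP1KO against NT 7 in place of 0 at 3dpc and 5 in place of 3 at 4dpc. Between SSRP1KO and NT without crush, 1 member (Slc7a3) was called in place of 0 by DESeq2, with at least 1 CPM in 3 libraries, with no filter, with the replicate block and without the library that stood apart. At 2dpc DESeq2 called 2 in place of 0. At 3dpc 1 (Asns) was called with the replicate block and without the library that stood apart, and at 4dpc 5 under each. Without the 3 doubtful libraries, SSRP1KO 4dpc against 1dpc had 4 called, SSRP1KO against NT had 2 without crush, 4 at 3dpc and 5 at 4dpc, and the difference between responses 4. The replicate block left 3 of 5 in the mean difference. Replicate numbers did not pair the libraries: the correlation of same-numbered deviations ran from -0.159 to 0.215 over 55 pairs, and in 0 of 17 comparisons with 3 pairs was every value over 0.1; SSRP1KO 2dpc shares only number 3 with the other groups. The causes were not tested.

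With 1 library left out at a time, the members called ran from 2 to 7 at NT 1dpc (7 without NT no crush replicate 1, 2 without replicate 2), 8 to 9 at NT 4dpc, 5 to 7 for NT 4dpc against 1dpc, 2 to 4 at SSRP1KO 1dpc (2 without replicate 1 of either group), 7 to 8 at SSRP1KO 2dpc and 3dpc, 6 to 8 at SSRP1KO 4dpc and 1 to 2 for SSRP1KO 4dpc against 1dpc (1 without SSRP1KO 4dpc replicate 1). Between SSRP1KO and NT they ran from 0 to 2 in uncrushed cells, 0 to 2 at 2dpc (2 without SSRP1KO 2dpc replicate 3), 0 to 2 at 4dpc and 3 to 6 in the mean. All genes called moved by over 1.5 times in several alternatives other than these: from 309 to between 150 (sex score) and 990 at NT 1dpc, from 672 to between 90 (sex score) and 1770 at SSRP1KO 1dpc, from 1939 to between 181 and 693 at SSRP1KO 2dpc, from 1495 to between 275 (sex score) and 4851 for SSRP1KO 4dpc against 1dpc, from 650 to between 3 (sex score) and 2418 between uncrushed SSRP1KO and NT, from 184 to between 290 and 1054 at 3dpc, from 1149 to 2443 at 4dpc and from 121 to between 63 (sex score) and 1104 for the difference between responses. The values 990, 1770, 2418, 1054, 2443 and 1104 are those without the 3 doubtful libraries. From 3 at 1dpc and 14 at 2dpc, the genes called between SSRP1KO and NT went to as many as 352 (only the groups compared) and 639 (DESeq2), and against no crush they fell from 3128 to 1946 at NT 2dpc and from 2414 to 1191 at SSRP1KO 3dpc (only the groups compared) and from 4513 to 2937 at NT 4dpc (sex score). Low counts limit Slc1a5 and uncrushed Slc7a3 most. With the longest transcript in place of merged exons, the levels per kilobase of Slc7a1, Slc1a5, Slc38a2 and Asns in NT no crush moved by more than 1 SD. At NT 3dpc other members moved by more than 1 SD as well, such as Slc3a2 from 83.2 to 104 and Slc7a3 from 20.4 to 28.0. There Slc38a2, at 83.4, no longer lay below Slc7a5, at 82.4.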
